A study of Homo sapiens with 18 samples.

Results

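The genes described here are 48 genes of autophagy and of the lysosome, chosen by symbol from the 56269 genes of the deposited expression table. Of these, 30 encode the autophagy machinery, 15 encode lysosomal proteins and 3 encode the transcription factors TFEB, TFE3 and MITF. RNA was sequenced from IMR90 cells, a well-known strain of primary human lung fibroblasts, in 6 groups of 3 libraries. Before collection or stress, all cells spent 6 h with phosphate-buffered saline (PBS) or with hyaluronan (HA) at 20 µg/ml, purified from naked mole-rat skin fibroblasts (NSF). The intact preparation (cNSF-HA) had been heated with inactivated hyaluronidase, and in the fragmented one (fNSF-HA) digestion with the active enzyme had cut the polymer in part. One group of each pre-incubation was collected without stress. The other was freed of HA, given 200 µM tert-butyl hydroperoxide (tBHP, an organic peroxide) for 1 h and collected 6 h after the stress began. Stressed cells were therefore also collected later and after a change of medium, and the effect of tBHP and that of time cannot be told apart. The study's methods describe its replicates as biological, and the labels do not say how the 3 libraries of a group were grown, so the tests measure the spread between these libraries. In bulk RNA, a smaller number of cells and less RNA per cell cannot be told apart either.

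Autophagy wraps parts of the cytoplasm in a double membrane, the autophagosome, and hands them to the lysosome for digestion. The ULK1 complex starts the process, a lipid kinase complex around BECN1 and PIK3C3 marks the membrane, and a pair of ubiquitin-like conjugation systems attaches ATG8 proteins such as LC3 to it. Receptors bring cargo to the ATG8 proteins, and the lysosome supplies acid through its proton pump, proteases of the cathepsin family and enzymes that cut sugar chains. TFEB, TFE3 and MITF are related transcription factors known to raise the transcription of many of these genes from a short palindromic element.

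That element, TCACGTGA, links the 3 factors to the other members, so the places where it lies near a gene start are shown here. RefSeq promoter windows (GRCh38.p14, 250 bases before to 50 bases after each start) were matched for 41 of the 48 members and for 27305 genes in all, and both strands were searched. The element was found in 4 of 10 lysosomal genes, in 1 of 28 genes of the autophagy machinery and in 0 of the 3 factors, and in 1.18% of all genes with a window. RB1CC1, UVRAG, LAMP2, CTSB, HEXA, ATP6V1A and ATP6V1H had no window. LAMP1 and MCOLN1 each held the element at 2 places. The 7 sites are given with their flanks, and capitals mark the element. Position is on the strand named. The ATG3 element begins at base 5 counted from the gene start, and the others begin before it.
LAMP1, chr13:113297199-113297228, plus strand: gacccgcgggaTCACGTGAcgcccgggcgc
LAMP1, chr13:113297226-113297255, plus strand: cgcggcgcagcTCACGTGAcaagcgctgcc
MCOLN1, chr19:7522571-7522600, plus strand: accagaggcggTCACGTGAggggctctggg
MCOLN1, chr19:7522598-7522627, plus strand: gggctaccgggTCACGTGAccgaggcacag
CTSA, chr20:45891298-45891327, plus strand: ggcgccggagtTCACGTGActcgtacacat
ATP6V0D1, chr16:67481199-67481228, minus strand: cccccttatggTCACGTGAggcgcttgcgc
ATG3, chr3:112561940-112561969, minus strand: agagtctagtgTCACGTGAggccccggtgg

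A second motif, TGACNNNGC, the core of the antioxidant response element bound by NRF2, was found in 7 of 10 lysosomal genes and in 2 of 28 autophagy genes, against 16.1% of all genes with a window. Of the 4 members that changed by 1 or more in all 3 tBHP responses (ULK1, GABARAPL1, MITF and GLA), only GLA held a match of any motif searched. Its site is shown for that reason, with the motif in capitals. The motif begins at base 18 counted from the gene start, after it rather than before.
GLA, chrX:101407890-101407918, minus strand: ccggtcaccgTGACAATGCagctgaggaa
TGATGNAA, the core of a composite element bound by ATF4, was found in 0 of 41 members and in 4.46% of all genes with a window. These matches describe letters in a window and are not measured binding sites.

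The 18 libraries held 20261103 to 26287660 reads counted in genes. All 9 fibroblast markers examined, among them COL1A1, COL1A2 and VIM, were present in every library, whereas the epithelial markers KRT5 and SFTPC, the endothelial marker CDH5 and the leukocyte marker MS4A1 were at 0 in all 18. The epithelial keratin KRT18 was present at 920 to 1778 normalized counts. Endothelial VWF (3.73 to 25.0) and leukocyte CD68 (0.977 to 11.4) were above 0 in every library, and leukocyte CD14 reached 12.7. No library stood apart among the 9 without tBHP. After tBHP, replicate 2 of the fNSF-HA cells stood apart most. Over the 10% of genes richest in G and C, its median deviation from the mean of the 9 stressed libraries was -0.797 on the log2 scale. That of the other stressed libraries lay between -0.202 and 0.334. Over the 10% poorest in G and C, replicate 2 was at 0.499. Other stressed libraries also differed from their mates, by chi-square per degree of freedom of the reads. Replicate 3 with cNSF-HA gave 35.7 and 28.2, against 2.86 between replicates 1 and 2. Replicate 1 with PBS gave 18.5 and 15.6, against 4.22 between replicates 2 and 3. The reads cannot be assigned by strand, and 14 of the 48 members overlap another expressed gene. In GENCODE 29, ATG9A, GABARAP, MCOLN1, CTSD and HEXA overlap a protein-coding gene on their own strand, so their counts are uncertain to that extent.

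All 48 members passed a filter of a mean normalized count of at least 10. Per kilobase of transcript, their mean over all libraries ran from 10.2 normalized counts for MITF and 34.3 for TFEB to 2365 for LAMP1, a glycoprotein of the lysosomal membrane, and 4453 for CTSB, the protease cathepsin B. The third factor, TFE3, stood at 884 per kilobase. Most of the machinery lay in between, for example ATG14 at 86.7, ULK1 at 399, GABARAPL1 at 722 and MAP1LC3B at 1020.

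The first question was how these genes differed between stressed and unstressed cells of each pre-incubation. Changes are given as differences of log2(normalized count + 1), and limma with Benjamini-Hochberg adjustment over 13686 genes decided whether a gene was called, at an adjusted p under 0.05. In PBS cells 26 of the 48 members were called higher after tBHP and 5 lower, against 24.2% and 26.9% of all genes tested. In cNSF-HA cells 26 were higher and 4 lower, against 24% and 26.8%. In fNSF-HA cells 17 were higher and 2 lower, against 19.2% and 22.7%. Members whose stressed libraries all lay above, or all below, the unstressed ones numbered 29 and 9 in PBS cells, against 31.8% and 32% of all genes tested. They numbered 30 and 6 after cNSF-HA, against 31.4% and 32.3%, and 20 and 7 after fNSF-HA, against 22.6% and 26.2%. The share of members called lower was thus under that of all genes in each pre-incubation, and the share called higher above it. The median change of the members was 0.27, 0.29 and 0.17 in PBS, cNSF-HA and fNSF-HA cells, and that of all genes tested was 0.0043, -0.00053 and -0.034.

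In all 3 pre-incubations together, 17 members were called higher and 2 lower, against 14.6% and 17.9% of all genes tested. The 17 were ULK1, ATG13, PIK3C3, AMBRA1, ATG9A, WIPI1, WIPI2, MAP1LC3B, GABARAPL1 and NBR1 of the machinery, TFE3 of the factors, and NPC1, CTSB, CTSL, CTSZ, GLA and HEXA of the lysosome. The 2 that fell were ATG7 and MITF. The calls of 21 of 31 members in PBS cells, 18 of 30 in cNSF-HA cells and 18 of 19 in fNSF-HA cells held with every library of the groups left out in turn and under every other setting tried.

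**Figure D1:**
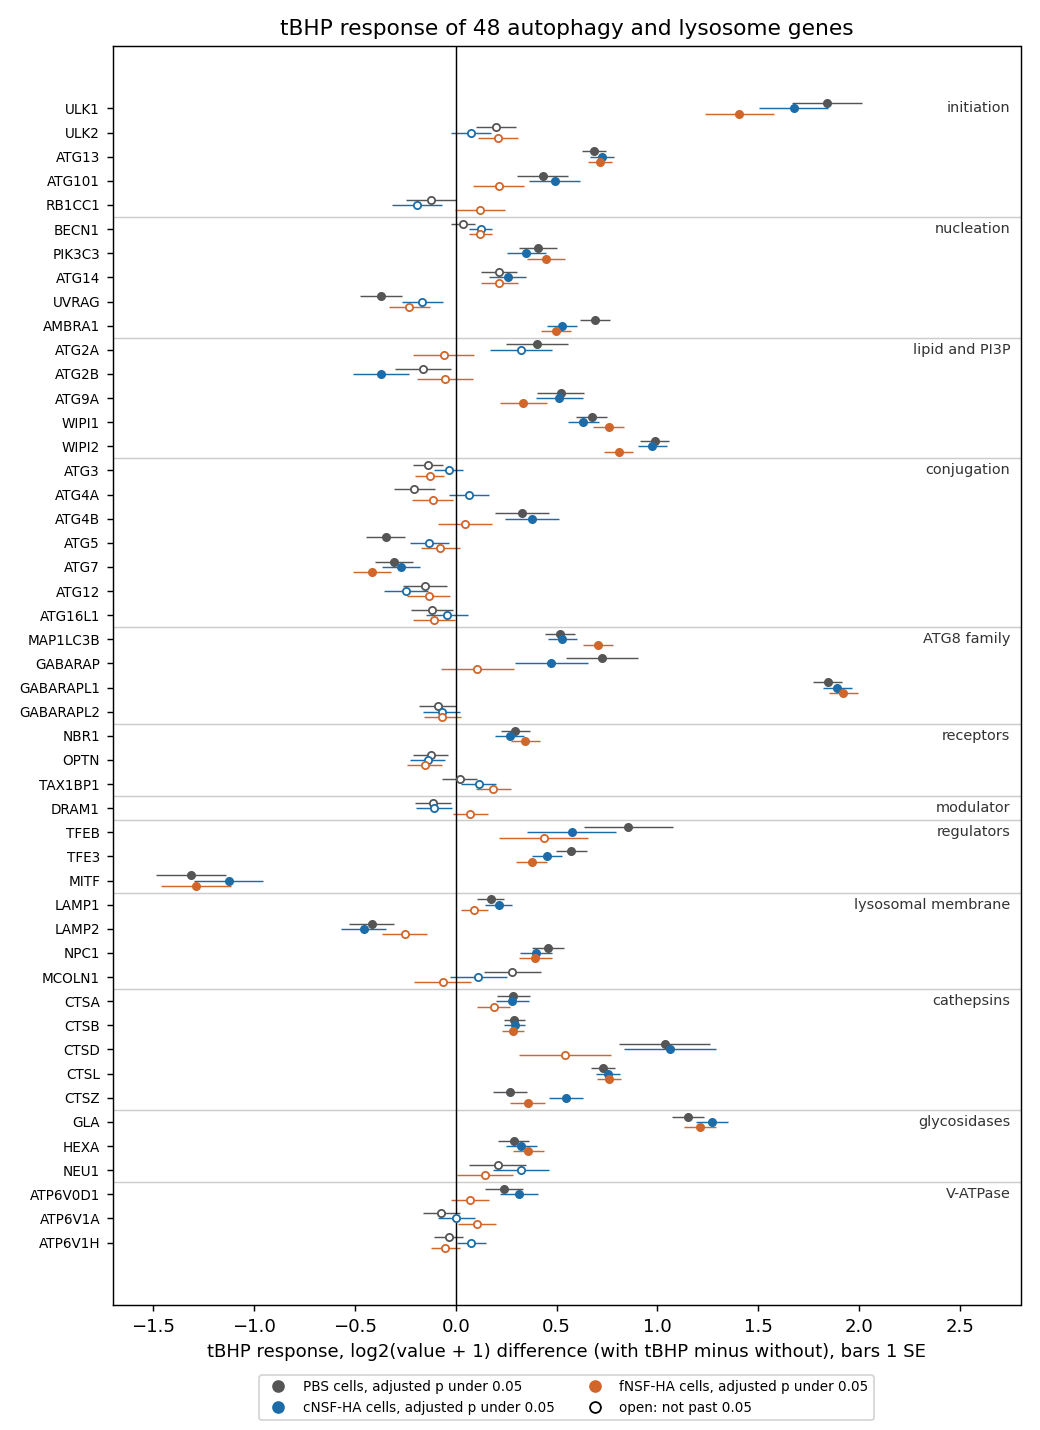
Differences of log2(normalized count + 1) between cells with and without tBHP (x axis) for the 48 genes grouped by role (y axis), with 1 SE from the limma fit, for PBS (grey), cNSF-HA (blue) and fNSF-HA (orange) cells. Filled points had an adjusted p under 0.05; ULK1 and GABARAPL1 lie farthest to the right (1.41 to 1.92) and MITF farthest to the left (-1.31 to -1.13), while most conjugation genes lie at or below 0.

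Autophagy starts at the kinase complex of ULK1, ATG13, ATG101 and the scaffold RB1CC1. ULK1, the kinase itself (chromosome 12, 131894651 to 131923167, plus strand, GRCh38), rose in all 3 pre-incubations. Without tBHP it stood at 978, 956 and 1035 normalized counts in PBS cells, 1074, 1053 and 1110 with cNSF-HA and 913, 986 and 961 with fNSF-HA. After tBHP it stood at 4210, 3133 and 3381 in PBS cells, 3368, 3490 and 3493 with cNSF-HA and 2663, 1686 and 3597 with fNSF-HA. Every stressed library was above every unstressed one, and the lowest stressed value was in fNSF-HA replicate 2. The changes were 1.84 ± 0.17 (SE), 1.68 ± 0.17 and 1.41 ± 0.17, that is 3.58-, 3.20- and 2.65-fold, with limma adjusted p of 1.18e-07, 4.14e-07 and 3.61e-06.

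ATG13, the adaptor of the complex, rose by 0.68, 0.72 and 0.72 in PBS, cNSF-HA and fNSF-HA cells. ATG101, which stabilizes ATG13, rose by 0.43 and 0.49 in PBS and cNSF-HA cells, and its change in fNSF-HA cells was 0.21 and not called, or 0.39 (limma adjusted p = 0.00245) without replicate 2 of the stressed cells. Its call in cNSF-HA cells was lost once each library was freed of its trend with the GC content and length of transcripts. ULK2, a second kinase of this kind, changed by 0.08 to 0.21 with no call. RB1CC1 changed by -0.12, -0.19 and 0.12 with no call, and by 0.36, 0.32 and 0.43 once the trend was removed.

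In the nucleation complex, the clearest change was in AMBRA1, a scaffold that regulates BECN1. It stood at 709, 716 and 695 normalized counts in unstressed PBS cells, at 759, 733 and 804 in cNSF-HA cells and at 726, 733 and 779 in fNSF-HA cells. With tBHP the values were 1193, 1120 and 1116, then 1192, 1097 and 1022, then 1078, 974 and 1110 in the same order of groups. No stressed library overlapped an unstressed one. The changes were 0.69 ± 0.07 (SE), 0.53 ± 0.07 and 0.50 ± 0.07, with limma adjusted p of 6.65e-07, 1.63e-05 and 3.50e-05.

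PIK3C3, the lipid kinase of the complex, rose by 0.41, 0.35 and 0.45. BECN1, its partner, changed by 0.04 to 0.12 with no call. ATG14, which directs the complex to autophagosomes, changed by 0.21, 0.26 and 0.22 and was called in cNSF-HA cells alone. That call was lost without unstressed replicate 1 or 3 or stressed replicate 1 or 3, with 0.18 as the lowest change, and limma put ATG14 past the threshold in all 3 pre-incubations once the trend with GC content and length was removed. UVRAG, the subunit of the endosomal form of the complex, was the member of this group that fell, by 0.37 in PBS cells, and its changes of -0.16 and -0.23 in the other pre-incubations were not called, although the last was called at -0.29 without stressed replicate 2.

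The next 5 members bind or move lipid at the forming membrane. WIPI2, which reads the lipid mark and brings in the conjugation machinery, had the largest change of them. In unstressed PBS, cNSF-HA and fNSF-HA cells it stood at 1613, 1491 and 1538, at 1518, 1594 and 1513, and at 1621, 1610 and 1595 normalized counts. In stressed cells the values were 3156, 2907 and 3138, then 2830, 3026 and 3251, then 2846, 2573 and 3060. The groups with and without tBHP were well separated. WIPI2 rose by 0.99 ± 0.07 (SE), 0.98 ± 0.07 and 0.81 ± 0.07, with limma adjusted p of 4.67e-09, 6.53e-09 and 7.00e-08.

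Its relative WIPI1 rose by 0.67, 0.63 and 0.76. ATG9A, the lipid scramblase carried on vesicles to the site, rose by 0.52, 0.51 and 0.33, and the fNSF-HA call was lost without any library but stressed replicate 2, with a change of 0.21 without stressed replicate 3. The lipid transfer proteins ATG2A and ATG2B went different ways. ATG2A changed by 0.41, 0.33 and -0.06 and was called in PBS cells alone, a call lost without any library but stressed replicate 2, with 0.32 as the lowest change. In fNSF-HA cells ATG2A changed by 0.17, not called, without stressed replicate 2 and by -0.30, called, without stressed replicate 3. ATG2B changed by -0.16, -0.37 and -0.05 and was called in cNSF-HA cells alone, a call lost without any unstressed replicate or stressed replicate 3, with -0.14 without the last.

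Most conjugation enzymes were not called in either direction. Of the 7 members, 1, 1 and 0 were called higher in PBS, cNSF-HA and fNSF-HA cells, and 2, 1 and 1 were called lower, against the 24.2%, 24% and 19.2% higher and the 26.9%, 26.8% and 22.7% lower of all genes tested. Their median changes were -0.15, -0.044 and -0.11. ATG7, the activating enzyme that starts both conjugation systems, fell in all 3 pre-incubations. Without tBHP its normalized counts were 644, 655 and 615 in PBS cells, 655, 709 and 611 with cNSF-HA and 692, 667 and 675 with fNSF-HA. With tBHP they were 480, 599 and 476, then 490, 570 and 578, then 518, 493 and 515. Within each pre-incubation all stressed libraries were below the unstressed ones. The changes were -0.31 ± 0.09 (SE), -0.27 ± 0.09 and -0.42 ± 0.09, with limma adjusted p of 0.0105, 0.0222 and 0.00157. The call in PBS cells was lost without replicate 1 or replicate 3 of the stressed cells (-0.26 and -0.25), and that in cNSF-HA cells without unstressed replicate 2 or stressed replicate 1 (-0.21 and -0.19) and by edgeR (-0.21, adjusted p = 0.0601). ATG7 overlaps VGLL4.

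ATG5, the acceptor of ATG12, fell by 0.35 in PBS cells and was not called in the others (-0.13 and -0.08). ATG4B, a protease that primes and releases ATG8 proteins, changed by 0.33 and 0.38 in PBS and cNSF-HA cells, both called, and by 0.05, not called, in fNSF-HA cells. Its call in PBS cells was lost with any library left out (lowest 0.29), and that in cNSF-HA cells without unstressed replicate 1 or 3 or stressed replicate 3 (lowest 0.33). Without stressed replicate 2, limma called ATG4B in fNSF-HA cells at 0.28 and ATG12 at -0.27. ATG3, ATG4A, ATG12 and ATG16L1 changed by -0.25 to 0.07 with no call. Some of these directions changed when base composition was taken into account: with the trend of each library with GC content and length removed, ATG5 changed by 0.097 and 0.25 in PBS and cNSF-HA cells, ATG12 by 0.34, 0.22 and 0.15 in the 3 pre-incubations and ATG3 by 0.25 and 0.29 in PBS and cNSF-HA cells.

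The ATG8 family held the member with the smallest p in every response. GABARAPL1, an ATG8 protein (chromosome 12, 10212458 to 10223130, plus strand), stood at 693, 730 and 694 normalized counts in PBS cells, 706, 748 and 665 with cNSF-HA and 683, 704 and 718 with fNSF-HA without tBHP. After tBHP the values were 2345, 2538 and 2741, then 2455, 2638 and 2782, then 2615, 2688 and 2679. The stressed and unstressed libraries formed separate ranges, and fNSF-HA replicate 2 lay among the other stressed libraries. GABARAPL1 rose by 1.84 ± 0.07 (SE), 1.89 ± 0.07 and 1.92 ± 0.07, that is 3.59-, 3.71- and 3.79-fold, with limma adjusted p of 1.46e-12, 1.22e-12 and 8.46e-13.

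MAP1LC3B, which encodes the LC3 protein used as the usual autophagosome marker, stood at 2141, 2265 and 2209 in PBS cells, 2159, 2144 and 2126 with cNSF-HA and 2276, 2178 and 2186 with fNSF-HA without tBHP. After tBHP it stood at 2922, 3159 and 3414, then 3000, 2955 and 3340, then 3562, 3983 and 3321. All stressed libraries were above all unstressed ones, and the highest was fNSF-HA replicate 2. Its changes were 0.52 ± 0.07 (SE), 0.53 ± 0.07 and 0.71 ± 0.07, with limma adjusted p of 1.58e-05, 1.45e-05 and 6.08e-07. MAP1LC3B overlaps FBXO31.

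GABARAP changed by 0.73, 0.47 and 0.11, and was called in PBS and cNSF-HA cells. The cNSF-HA call was lost without any library but stressed replicate 2, with 0.36 as the lowest change. GABARAPL2 changed by -0.09, -0.07 and -0.07 with no call, in contrast to its relative GABARAPL1.

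Among the receptors, NBR1, which carries ubiquitin-tagged cargo, rose modestly. It stood at 2317, 2274 and 2242 normalized counts in PBS cells, 2282, 2140 and 2303 with cNSF-HA and 2308, 2305 and 2266 with fNSF-HA before stress. In stressed cells it stood at 2742, 2801 and 2843, then 2929, 2820 and 2382, then 3009, 3009 and 2730. The smallest gap between the groups was in cNSF-HA cells, where stressed replicate 3 was only just above the unstressed libraries. The changes were 0.30 ± 0.07 (SE), 0.27 ± 0.07 and 0.35 ± 0.07, with limma adjusted p of 0.00224, 0.00450 and 0.000789. OPTN (-0.15 to -0.12) and TAX1BP1 (0.02 to 0.19), receptors of damaged mitochondria and protein aggregates, were not called.

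DRAM1, a lysosomal membrane protein that modulates autophagy and is a known p53 target, showed no called change. Its unstressed values were 703, 737 and 688 in PBS cells, 709, 691 and 733 with cNSF-HA and 691, 741 and 663 with fNSF-HA. The stressed values were 626, 608 and 742, then 655, 628 and 698, then 730, 804 and 672. The ranges overlapped in every pre-incubation. The changes were -0.11, -0.11 and 0.07, each with an SE of 0.09, and the limma adjusted p were 0.299, 0.319 and 0.542.

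The 3 factors moved in opposite directions at very different levels. TFE3, the most abundant, stood at 2484, 2432 and 2446 normalized counts in PBS cells, 2630, 2571 and 2568 with cNSF-HA and 2736, 2442 and 2476 with fNSF-HA without tBHP. With tBHP it stood at 3906, 3481 and 3580, then 3569, 3557 and 3511, then 3346, 2918 and 3713. All stressed libraries were above all unstressed ones, with fNSF-HA replicate 2 the lowest of them. TFE3 rose by 0.57 ± 0.08 (SE), 0.45 ± 0.08 and 0.38 ± 0.08, with limma adjusted p of 7.05e-06, 9.09e-05 and 0.000633.

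TFEB was measured at low counts, namely 60.8, 56.0 and 74.4 in PBS cells, 76.3, 71.4 and 80.6 with cNSF-HA and 59.8, 75.9 and 67.1 with fNSF-HA. After tBHP the counts were 136, 99.1 and 114, then 129, 100.4 and 114, then 109, 56.4 and 124. Stressed and unstressed libraries separated in PBS and cNSF-HA cells, whereas with fNSF-HA replicate 2 lay below the unstressed ones. The changes were 0.86 ± 0.22 (SE), 0.57 ± 0.22 and 0.44 ± 0.22, with limma adjusted p of 0.00371, 0.0381 and 0.126. The cNSF-HA call was lost without any library but stressed replicate 2 (0.49 without stressed replicate 1), and without fNSF-HA replicate 2 the TFEB change in those cells was 0.78 (limma adjusted p = 0.000795).

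MITF, the lowest of the members (chromosome 3, 69739435 to 69968337, plus strand), fell. Its counts without tBHP were 73.4, 83.0 and 65.7 in PBS cells, 56.3, 75.3 and 67.2 with cNSF-HA and 62.8, 69.0 and 74.5 with fNSF-HA. With tBHP they were 31.8, 28.3 and 27.4, then 27.4, 27.4 and 34.6, then 22.8, 30.8 and 29.6. No stressed library reached an unstressed one, and fNSF-HA replicate 2 lay within the range of the other stressed libraries. MITF changed by -1.31 ± 0.17 (SE), -1.13 ± 0.17 and -1.29 ± 0.17, with limma adjusted p of 6.55e-06, 3.83e-05 and 1.09e-05.

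On the lysosomal membrane, NPC1, which exports cholesterol from the lysosome, rose in all 3 pre-incubations. It stood at 1182, 1234 and 1218 normalized counts in PBS cells, 1224, 1224 and 1151 with cNSF-HA and 1217, 1238 and 1263 with fNSF-HA without tBHP, and at 1754, 1639 and 1603, then 1659, 1730 and 1378, then 1725, 1665 and 1509 after it. The ranges did not overlap. NPC1 rose by 0.46 ± 0.08 (SE), 0.40 ± 0.08 and 0.40 ± 0.08, with limma adjusted p of 0.000126, 0.000479 and 0.000649.

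The abundant membrane glycoproteins LAMP1 and LAMP2 went opposite ways as deposited. LAMP1 changed by 0.17, 0.21 and 0.09, called in PBS and cNSF-HA cells, and LAMP2 by -0.42, -0.46 and -0.25, called in the same cells. The LAMP1 call in PBS cells was lost without any library but stressed replicate 2 (0.14 without stressed replicate 1), and without fNSF-HA stressed replicate 2 both were called there, at 0.18 and -0.42. Their transcripts differ in GC content, 55.2% against 37.7%, and with the trend removed LAMP1 changed by -0.023 and LAMP2 by 0.071 in PBS cells, and by 0.0073 and -0.0091 in cNSF-HA cells, none of them called. Quantile normalization also ended the LAMP1 call in cNSF-HA cells, at 0.16. MCOLN1, the lysosomal calcium channel, was not called in any pre-incubation (0.28, 0.11 and -0.07), but with the trend removed it was called lower in cNSF-HA cells, at -0.24 (limma adjusted p = 0.00331).

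The 5 members among the cathepsins, proteases of the lysosome, were all called higher in PBS and cNSF-HA cells, and 3 of 5 after fNSF-HA, against 24.2%, 24% and 19.2% of all genes tested. CTSD, the aspartic protease cathepsin D (chromosome 11, 1752752 to 1764573, minus strand), had the largest mean of the 3 changes, although in fNSF-HA cells CTSL changed more. It stood at 1165, 1137 and 1059 normalized counts in PBS cells, 1181, 1147 and 1190 with cNSF-HA and 1103, 977 and 1190 with fNSF-HA without tBHP. After tBHP it stood at 2637, 2058 and 2231, then 2213, 2251 and 2957, then 1663, 930 and 2568. The stressed fNSF-HA libraries spread over the whole range, and replicate 2 lay below every unstressed library. The changes were 1.04 ± 0.23 (SE), 1.06 ± 0.23 and 0.54 ± 0.23, with limma adjusted p of 0.00101, 0.000838 and 0.0636. Without fNSF-HA replicate 2 the CTSD change in those cells was 0.93 (limma adjusted p = 2.47e-05), and the other settings that put it past the threshold, edgeR and DESeq2 among them, gave 0.50 to 0.72.

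CTSL, a cysteine protease, rose by 0.73, 0.76 and 0.76, and CTSB by 0.29 in each pre-incubation. CTSZ rose by 0.27, 0.55 and 0.36. CTSA, a carboxypeptidase that also protects lysosomal glycosidases, rose by 0.29 and 0.28 in PBS and cNSF-HA cells and changed by 0.19 in fNSF-HA cells, or by 0.31 with a call without stressed replicate 2. Quantile normalization gave CTSB in cNSF-HA cells as 0.10, without a call. With the trend of each library with GC content and length removed, CTSZ changed by -0.00041 in PBS cells and CTSA by 0.042 and -0.014 in PBS and cNSF-HA cells. The CTSZ call in PBS cells was also lost without replicate 1 of the stressed cells (0.23, limma adjusted p = 0.0599).

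GLA, the alpha-galactosidase that clears glycolipids (chromosome X, 101397803 to 101408012, minus strand), was the lysosomal member with the largest mean change. Without tBHP it stood at 523, 503 and 529 normalized counts in PBS cells, 544, 512 and 464 with cNSF-HA and 523, 525 and 572 with fNSF-HA. With tBHP it stood at 1217, 1129 and 1117, then 1200, 1138 and 1335, then 1223, 1246 and 1281. Every stressed library was well above every unstressed one, fNSF-HA replicate 2 included. GLA rose by 1.15 ± 0.08 (SE), 1.27 ± 0.08 and 1.21 ± 0.08, that is 2.22-, 2.41- and 2.31-fold, with limma adjusted p of 2.24e-09, 6.66e-10 and 1.30e-09. HEXA, a subunit of the hexosaminidase that degrades gangliosides, rose by 0.29, 0.33 and 0.36, and in PBS cells lost its call at 0.15 with the trend with GC content and length removed. NEU1, a sialidase, changed by 0.21, 0.32 and 0.14 with no call.

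**Figure D2:**
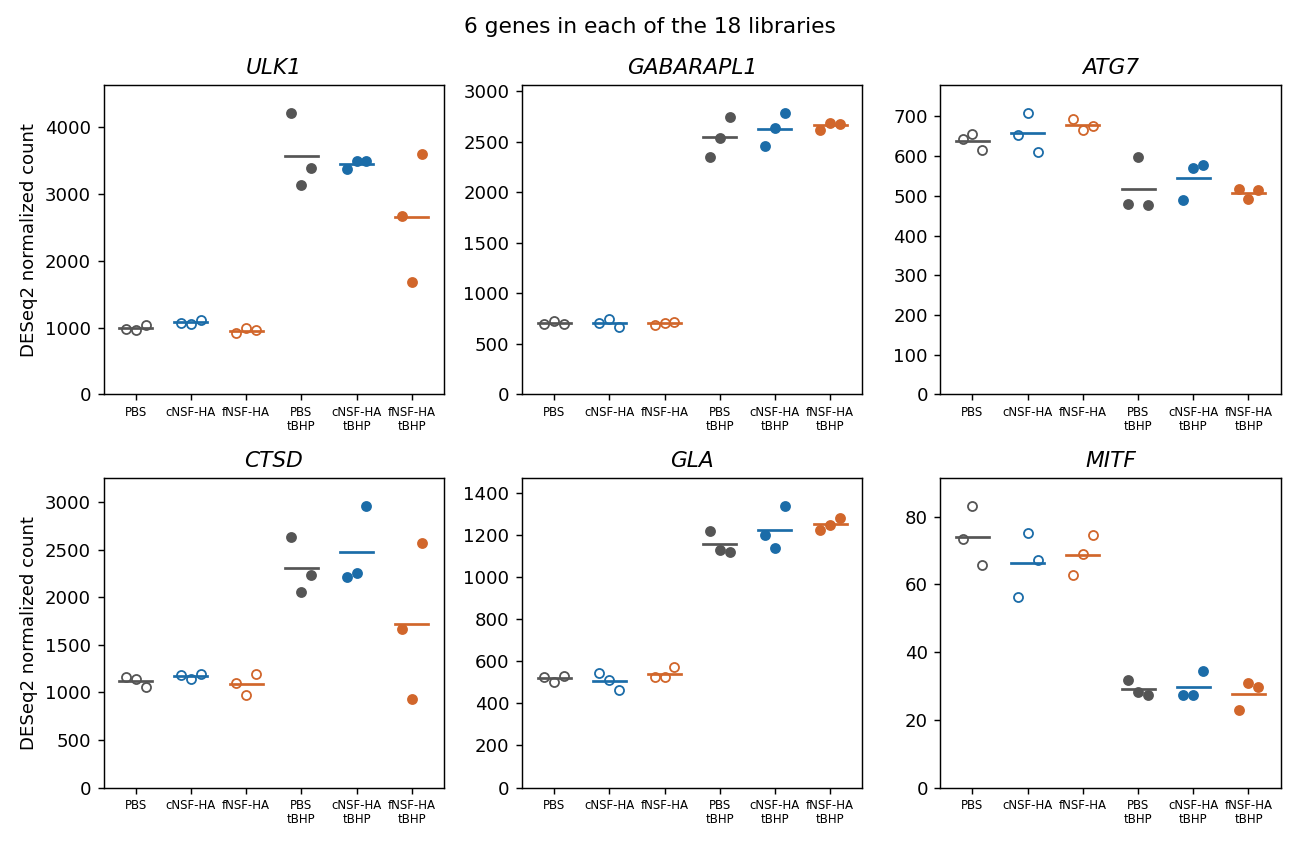
DESeq2 normalized counts (y axis, from 0) of ULK1, GABARAPL1, ATG7, CTSD, GLA and MITF in the 18 libraries (points; open without tBHP, filled with tBHP; from left to right replicates 1 to 3) of the 6 groups (x axis), with the group mean as a line. GABARAPL1, GLA and MITF show separate stressed and unstressed ranges, while ULK1 (1686) and CTSD (930) are lowest among stressed libraries in fNSF-HA replicate 2.

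The proton pump acidifies the lysosome. ATP6V0D1, a subunit of its membrane sector, stood at 1726, 1738 and 1726 normalized counts in PBS cells, 1773, 1709 and 1751 with cNSF-HA and 1825, 1805 and 1808 with fNSF-HA without tBHP. With tBHP the values were 2282, 1887 and 1985, then 2080, 2115 and 2320, then 2063, 1574 and 2122. In fNSF-HA cells, replicate 2 was below the unstressed libraries and the other pair above them. The changes were 0.24 ± 0.09 (SE), 0.31 ± 0.09 and 0.07 ± 0.09, with limma adjusted p of 0.0403, 0.00969 and 0.582. The PBS call was lost without any library but stressed replicate 2 (0.16 without stressed replicate 1), the fNSF-HA change was 0.21 (limma adjusted p = 0.0232) without replicate 2, and with the trend removed ATP6V0D1 changed by -0.017 and -0.019 in PBS and cNSF-HA cells. ATP6V1A and ATP6V1H, subunits of the cytoplasmic sector, changed by -0.07 to 0.11 and were not called, and with the trend removed ATP6V1A changed by 0.27, 0.35 and 0.30.

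The next question was how the autophagy machinery compared with the lysosomal proteins. In PBS cells 14 of 30 machinery genes were called higher and 3 lower, beside 10 of 15 lysosomal genes higher and 1 lower, against 24.2% and 26.9% of all genes tested. With the trend of each library with GC content and length removed, they were 17 and 3 beside 6 and 0, against 28.5% and 29.7%. As deposited, in cNSF-HA cells the counts were 14 and 2 beside 10 and 1, against 24% and 26.8%. In fNSF-HA cells they were 10 and 1 beside 6 and 0, against 19.2% and 22.7%, and without replicate 2 of the stressed cells 12 and 3 beside 10 and 1, against 24.4% and 26.2% of all genes tested. With the trend removed they were 19 and 1 beside 8 and 1 in cNSF-HA cells, where 3558 of 12528 genes were higher and 3558 lower. After fNSF-HA they were 16 and 2 beside 8 and 0, where 3506 genes were higher and 3623 lower. Median changes of the machinery were 0.21, 0.19 and 0.12 in the 3 pre-incubations, and those of the lysosomal genes were 0.28, 0.31 and 0.19. The machinery spread more widely, from -0.37 to 1.84 in PBS cells, beside -0.42 to 1.15 for the lysosomal genes. With DRAM1 counted among the lysosomal genes, the lysosomal medians were 0.27, 0.30 and 0.17.

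By library, the median level of the machinery lay 0.15 to 0.21 above the mean of the PBS libraries in each of the 9 stressed libraries. The lysosomal median lay 0.23 to 0.38 above it in 8 of them, and 0.070 above it in fNSF-HA replicate 2, the only stressed library in which the lysosomal genes were below the machinery. The median GC content of the transcripts was 47.4% in the machinery, 52.8% in the lysosomal genes and 48.3% in all genes tested with a transcript. With the trend of each library with GC content and length removed, the medians of the machinery were 0.24, 0.24 and 0.16 and those of the lysosomal genes 0.071, 0.19 and 0.20, so that the order of the classes turned in PBS and cNSF-HA cells. How much of the order as deposited belongs to base composition was not tested beyond these values.

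**Figure D3:**
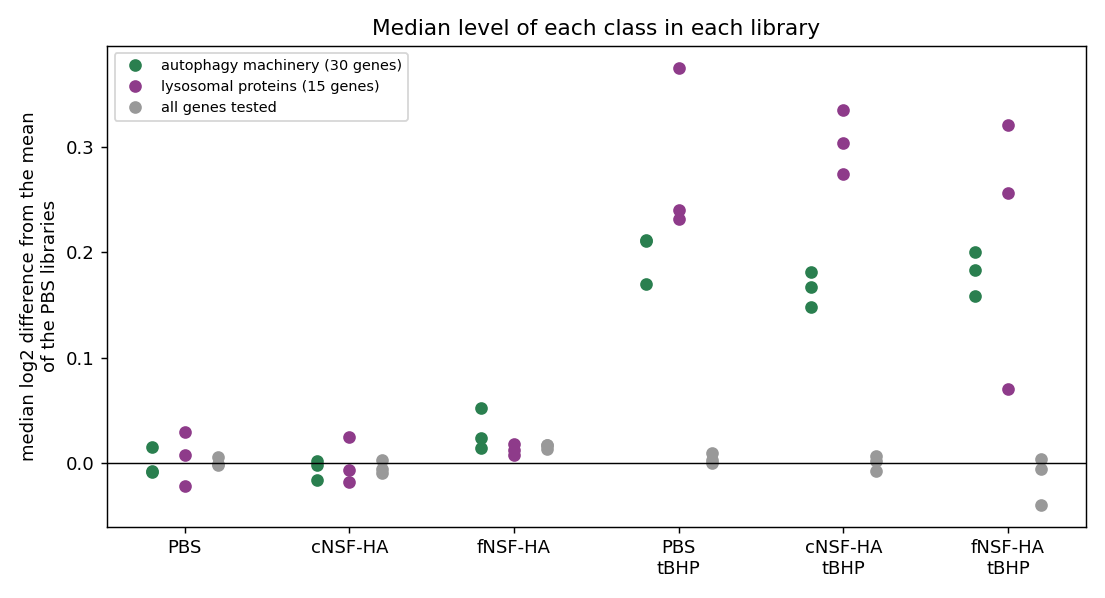
Median over genes of the difference of log2(normalized count + 1) from the mean of the 3 unstressed PBS libraries (y axis), for the autophagy machinery (green), the lysosomal proteins (purple) and all genes tested (grey), in each library of the 6 groups (x axis). Green points of stressed libraries lie between 0.15 and 0.21, and purple points between 0.23 and 0.38 except 1 at 0.070.

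Other genes of the same pathways, which are no members, were counted in the same fit. Of 29 further autophagy genes tested, 11 were called higher and 3 lower in all 3 pre-incubations, against 14.6% and 17.9% of all genes tested. SQSTM1, which encodes the receptor p62, rose by 2.15, 2.14 and 1.99 from group means of 4524, 4618 and 4579 normalized counts. TP53INP1, a stress protein that binds ATG8 proteins, rose by 1.72, 1.57 and 1.93. Of 59 further lysosomal genes tested, 7 were called higher and 10 lower in all 3, shares near those of all genes. LIPA, the acid lipase, fell by 0.93, 0.83 and 0.61. CTSC, a cathepsin that is no member and is named after its values were seen, fell by 0.87, 0.67 and 0.72. The median changes of these 59 genes were 0.043, 0.060 and 0.0038, unlike those of the 15 lysosomal members, and those of the 29 autophagy genes were 0.15, 0.14 and 0.079.

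Pre-incubation with HA alone was compared next, in cells without tBHP. Limma called 0 members, and 0% of all genes, between cNSF-HA and PBS, fNSF-HA and PBS, or cNSF-HA and fNSF-HA cells. At an unadjusted p under 0.05 there were 0 members, against 0.921%, 0.796% and 1.51% of all genes. Limma used 1 spread per gene for all 6 groups, although replicate pairs differed less without tBHP. Their chi-square per degree of freedom was 1.48 to 2.69, against 2.86 to 71.2 after tBHP. The unstressed tests were thus less able to call a difference, and a lack of calls does not show a lack of an HA effect. For stressed groups the pooled spread tended to lie below their own. EdgeR and DESeq2 on recovered reads also called 0 members. The differences of the members ran from -0.19 (ATG5) to 0.26 (TFEB) between cNSF-HA and PBS, from -0.10 (MITF) to 0.15 (GABARAP) between fNSF-HA and PBS, and from -0.15 (ATG14) to 0.18 (ULK1) between cNSF-HA and fNSF-HA. In a fit of the cNSF-HA and fNSF-HA libraries alone, ULK1 (0.18, limma adjusted p = 0.0120) and ATP6V1A (-0.15, limma adjusted p = 0.0219) passed the threshold, as did 7.16% of all genes tested. ULK1 stood at 1053 to 1110 in cNSF-HA cells and at 913 to 986 in fNSF-HA cells, without overlap. Members without overlap numbered 4 higher and 8 lower in that comparison, against 7.91% and 17.1% of all genes tested. Between cNSF-HA and PBS they numbered 6 and 4, against 6.89% and 8.33%, and between fNSF-HA and PBS 8 and 1, against 9.17% and 4.82%.

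After tBHP, limma called 0 members between cNSF-HA and PBS cells, between fNSF-HA and PBS cells and between cNSF-HA and fNSF-HA cells, against 0%, 0.139% and 0% of all genes tested. At an unadjusted p under 0.05 the members numbered 1 (CTSZ), 9 and 12, against 8.64%, 22.7% and 32.2% of all genes tested, so that their shares lay below those of all genes. Between cNSF-HA and fNSF-HA cells the differences ran from -0.42 (RB1CC1) to 0.63 (CTSD). The 3 members with the smallest p were RB1CC1, ATG4B and MAP1LC3B, each with a limma adjusted p of 0.0981. DESeq2 on recovered reads called RB1CC1 (-0.43, adjusted p = 0.0378) and 5.79% of all genes tested, and edgeR called 0 members.

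RB1CC1 stood at 1330, 1311 and 1150 normalized counts in stressed cNSF-HA cells, 1604, 2126 and 1396 in stressed fNSF-HA cells and 1167, 1608 and 1306 in stressed PBS cells. It was the only member whose stressed cNSF-HA and fNSF-HA libraries did not overlap, being lower with cNSF-HA, where 5.07% of all genes tested were higher and 8.29% lower without overlap. Between cNSF-HA and PBS, 2 members were higher without overlap and 0 lower, against 4.57% and 5.01%, and between fNSF-HA and PBS 2 and 1, against 6.86% and 5.11%. Without tBHP its values were 1412, 1460 and 1454, then 1507, 1607 and 1534, then 1426, 1480 and 1498 in the same order. The difference after tBHP was -0.42 ± 0.12 (SE), and -0.25 without replicate 2 of the stressed fNSF-HA cells.

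ATG4B stood at 1587, 1665 and 1795 in stressed cNSF-HA cells, 1343, 916 and 1649 in stressed fNSF-HA cells and 1623, 1497 and 1483 in stressed PBS cells. Its unstressed values were 1262, 1328 and 1283, then 1247, 1201 and 1231, then 1236, 1186 and 1244. The low value of 916 was in replicate 2, replicate 1 was also below the cNSF-HA range, and replicate 3 lay within it. The difference was 0.41 ± 0.13 (SE) for ATG4B and -0.22 ± 0.07 for MAP1LC3B, whose values are given above. Without fNSF-HA replicate 2 they were 0.18 and -0.15.

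With all libraries limma called 0 members, and calls appeared when replicate 3 of the stressed fNSF-HA cells was left out. In that group its values of ULK1 and CTSD were highest, and the fit without it rests in part on replicate 2, which stood apart most. Without replicate 3, 19 members were called between cNSF-HA and fNSF-HA and 13 between fNSF-HA and PBS. Of all genes tested, 40.8% and 29.4% were called, shares close to those of the members. Without replicate 2 instead, limma called 0 of 13686 genes in either comparison. Genes with an unadjusted limma p under 0.05 between cNSF-HA and fNSF-HA then numbered 1183, against 4412 with all libraries. The difference between the HA preparations also ran with base composition: over the 48 members, Spearman's rho between transcript GC content and the difference of cNSF-HA from fNSF-HA after tBHP was 0.812, beside 0.787 over 12528 genes tested. With the trend of each library removed it was -0.17 in the members. The points share the same 6 libraries, and genes are not independent replicates. CTSD, ULK1 and ATG2A, with GC contents of 64.0%, 64.2% and 64.0%, were higher with cNSF-HA by 0.63, 0.45 and 0.44 without a call, and RB1CC1 at 37.6% and LAMP2 at 37.7% were lower by 0.42 and 0.28. Without fNSF-HA replicate 2 these differences were 0.25 for CTSD, 0.16 for ULK1, 0.21 for ATG2A, -0.25 for RB1CC1 and -0.12 for LAMP2.

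**Figure D4:**
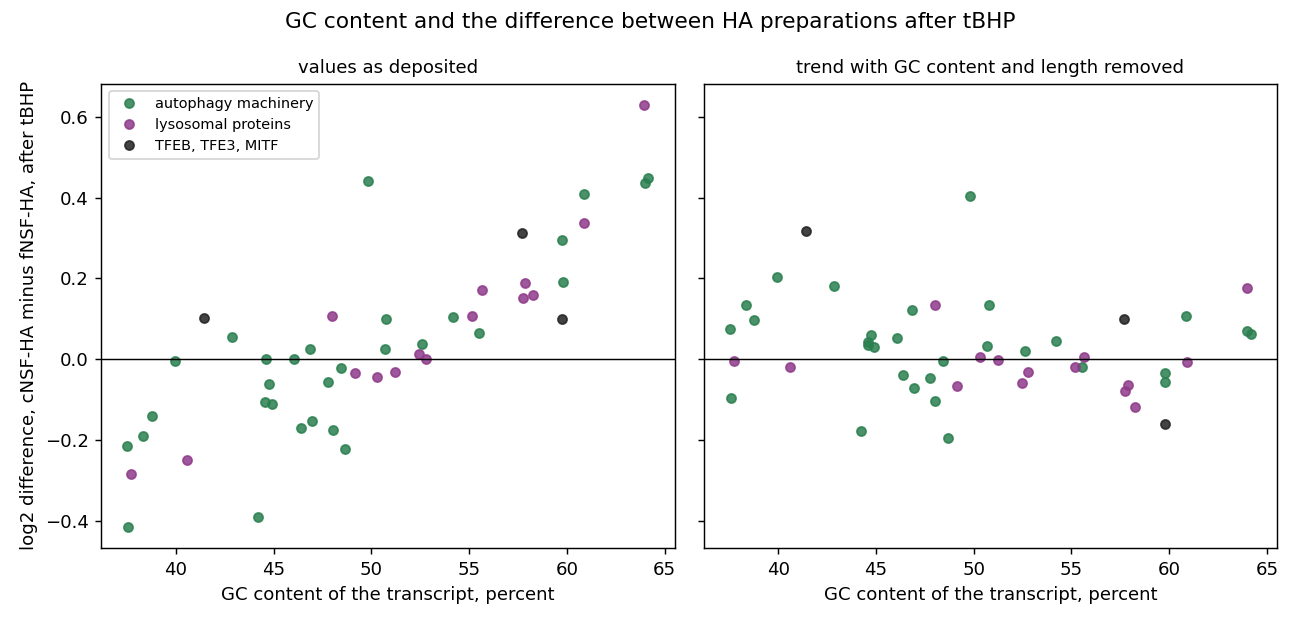
Difference of log2(normalized count + 1) between stressed cNSF-HA and fNSF-HA cells (y axis) against the GC content of the transcript in percent (x axis) for the 48 genes, as deposited (left) and with the trend of each library with GC content and length removed (right). On the left the points climb from -0.42 (RB1CC1, 37.6%) to 0.63 (CTSD, 64.0%), with Spearman's rho 0.812; on the right rho is -0.17.

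The same trend was present, to a smaller degree, in the tBHP responses: rho between GC content and change over the 48 members was 0.623, 0.637 and 0.397 in PBS, cNSF-HA and fNSF-HA cells, and 0.043, 0.0107 and 0.0788 with the trend removed. Of the 4 members that changed by 1 or more in all 3 responses, ULK1 had a GC content of 64.2%, GLA of 49.2%, GABARAPL1 of 48.4% and MITF of 41.4%.

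Finally, the tBHP responses themselves were compared between pre-incubations. Limma called 0 members, and 0% of all genes, in each of the 3 differences between responses. EdgeR and DESeq2 also called 0 members. At an unadjusted p under 0.05 there was 1 member between cNSF-HA and PBS cells (CTSZ), 2 between fNSF-HA and PBS cells (GABARAP and ATG2A) and 0 between cNSF-HA and fNSF-HA cells, against 4.06%, 6.88% and 3.89% of all genes tested. For ULK1, the response of fNSF-HA cells differed from that of PBS cells by -0.43 ± 0.24 (SE), with a limma adjusted p of 0.667, and for CTSD by -0.49 ± 0.32, with a limma adjusted p of 0.683. The smaller number of members called in fNSF-HA cells is therefore not shown to be a difference between the responses.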

How the data were processed

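In all, 18 RNA-seq libraries of IMR90 cells (6 groups of 3) were compared. Per the labels and methods, the authors prepared TruSeq V2 libraries, read 100 nt single ends, trimmed with Trimmomatic 0.32, aligned with STAR 2.5.2b to GRCh38.p7 and counted with featureCounts (Subread 1.5.0-p3). The deposited values are a signal in the form of counts divided by DESeq2 size factors. All of them were whole multiples of 1 read within 0.01 read, so reads were recovered for edgeR 4.0.16 and DESeq2 1.42.0 (13686 genes). The deposited file also holds 3 columns of the authors' own test, a p-value, a q-value and a ranking per gene for a comparison it does not name, and none was used. The authors' methods name DESeq2 for differential expression, without tying the deposited p-value and q-value to a comparison. Limma 3.58.1 (R 4.3.3, mean-variance trend) was fitted to log2(value + 1) of 13686 genes with a mean of at least 10, with 1 coefficient per group and Benjamini-Hochberg adjustment, two-sided, and was tested on simulated data. The pseudocount understates changes of low genes. GC content and length came from GENCODE 29 (91.5% of genes tested), and a spline with 5 degrees of freedom was removed from each library in 1 alternative. The members and lists were chosen with earlier results of these data known. Values in every library were given for the 3 factors, the member of each role with the largest mean change, members changed by 1 or more in all 3 responses, and the 3 members with the smallest p between stressed cNSF-HA and fNSF-HA cells. Of other genes, the 2 autophagy and 2 lysosomal genes with the largest mean change were to be named, and 1 of them is not reported here. Element sites were shown wherever TCACGTGA matched, chosen after the matches were seen. Alternatives tried were other pseudocounts, filters, scalings and tools, a replicate block, and each library left out.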

Additional observations from a re-analysis of the deposited data

Results flagged for a closer look

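CTSZ and AMBRA1 were noted because every library of a pre-incubation differed from PBS in opposite directions without and with tBHP. CTSZ in cNSF-HA cells differed from PBS cells by -0.094 without tBHP and by 0.19 after it, and limma gave the difference between the responses as 0.28 ± 0.12 (SE) with an adjusted p of 0.999, higher after tBHP in 3 of 3 libraries. AMBRA1 in fNSF-HA cells differed from PBS cells by 0.078 without tBHP and by -0.12 after it, and the difference between the responses was -0.20 ± 0.11 (SE) with a limma adjusted p of 0.667. Neither passed the threshold.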

How the results depend on the processing

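Of the values for single genes, 592 changed sign with no call on either side, and no direction is claimed for them. With the trend with GC content and length removed, these responses turned: ATG12 to 0.34, 0.22 and 0.15 in PBS, cNSF-HA and fNSF-HA cells, ATG3 to 0.25 and 0.29, ATG5 to 0.097 and 0.25, ATP6V0D1 to -0.017 and -0.019 and RB1CC1 to 0.36 and 0.32 in PBS and cNSF-HA cells, ATP6V1A to 0.27, CTSZ to -0.00041, LAMP1 to -0.023 and LAMP2 to 0.071 in PBS cells, and CTSA to -0.014 and MCOLN1 to -0.24 in cNSF-HA cells. That setting also gave 6 lysosomal members higher and 0 lower in PBS cells (all genes: 3566 and 3722 of 12528). In cNSF-HA cells it gave 1 machinery member lower (all genes: 3558). In fNSF-HA cells it gave 16 machinery members higher and 2 lower (all genes: 3506 and 3623). Between fNSF-HA and PBS cells after tBHP it gave 1 member, CTSZ (all genes: 51 higher and 32 lower). Machinery members lower in cNSF-HA cells numbered 1 without a filter (all genes: 3552 of 31441) and 0 by edgeR (all genes: 3253 of 13686). DESeq2 called 1 member (RB1CC1) between cNSF-HA and fNSF-HA after tBHP, and a fit of the groups compared called 2 without tBHP. The cause of these shifts was not tested.

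Leaving out 1 library at a time, machinery members lower in cNSF-HA cells numbered 0 to 3, where 3171 to 3506 of 13686 genes were lower. In fNSF-HA cells 1 to 3 machinery members were lower, and 6 to 10 lysosomal members higher and 0 to 1 lower. Of all genes, 2140 to 3340 were higher there and 2561 to 3590 lower. Members called after tBHP numbered 0 to 13 between fNSF-HA and PBS, where 0 to 4024 genes were called. Between cNSF-HA and fNSF-HA they numbered 0 to 19, where 0 to 5586 genes were called. Deviations of same-numbered libraries had a median correlation of 0.0341, with single pairs from -0.119 to 0.333. This does not settle whether the numbers pair the libraries. The replicate block gave 1 lysosomal member lower in fNSF-HA cells, where 3241 of 13686 genes were lower, and moved no other count of members by over 1.5 times. Over all genes, it moved the calls between fNSF-HA and PBS cells after tBHP from 16 higher and 3 lower to 51 and 10. DESeq2 gave 336 and 115 there.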

Other observations

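Further regulators of these pathways were counted as well. Of 14 tested, 5 were called higher and 3 lower in all 3 pre-incubations, against 14.6% and 17.9% of all genes tested, and they are named here after their values were seen. DDIT3, a transcription factor of the stress response, rose by 2.92, 3.04 and 3.12, and its partner ATF4 by 1.40, 1.43 and 1.38. ZKSCAN3, a known repressor of autophagy genes, FLCN and TSC1 also rose. PRKAA2, a catalytic subunit of the energy sensor AMPK, fell by 2.00, 1.48 and 1.14, from a mean of 70.8 to 19.1 normalized counts in PBS cells, and FNIP2 and RRAGC also fell.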
